A study of Mus musculus with 12 samples.

Results

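The 10 immediate-early genes outside the AP-1 family examined were the zinc-finger factors Egr1 and Egr2, the orphan nuclear receptors Nr4a1 and Nr4a2, the immediate-early response genes Ier2, Ier3 and Ier5, the antiproliferative gene Btg2, the stress gene Gadd45b and the clock gene Per1. They were found by their symbols in the 3 tables of pairwise comparisons. Of the 10 genes named, 9 were listed among 12786 genes, and Ier3 was not analysed here. Ier2 was listed only in the 2 tables that include Vehicle, the group in which it was highest, so it was not tested between the Klf4 siRNA and Scramble groups. A gene listed through Vehicle alone is favoured to stand lower elsewhere, so Ier2 is left out of the counts against Vehicle and described on its own.

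The study measured RNA by sequencing in GT1-7 cells, an immortalised mouse line of hypothalamic neurons that secrete gonadotropin-releasing hormone (GnRH), with 4 samples in each of 3 groups. Cells of the Klf4 siRNA group were transfected for 24 h, by Lipofectamine in Opti-MEM I, with an siRNA to the transcription factor gene Klf4. The Scramble group received a scrambled siRNA in the same way. The Vehicle group was held without serum for 6 h and then in DMEM free of Ca2+ for 1 h before collection, and the labels describe no transfection for it. As described, the siRNA groups differ from Vehicle in transfection and medium, and the labels do not say whether they too were held without serum or Ca2+. The parts of transfection, medium, serum and calcium handling in any difference from Vehicle cannot be told apart. All samples come from 1 cell line, 1 siRNA stands for each siRNA group, and nothing says that replicates came from separate cultures, so p-values measure the spread between these samples, which may be technical.

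Immediate-early genes are transcribed within minutes of a stimulus without new protein synthesis, and their mRNAs are short-lived. Serum and growth factors reach many of them through ERK and serum response factor (SRF) with its ternary complex partners, which bind the CArG box, and calcium and cAMP reach them through CREB, which binds the cAMP response element (CRE). EGR proteins bind GC-rich sites and are held back by NAB co-repressors, NR4A receptors act without a known hormone, and in pituitary gonadotropes EGR1 carries the GnRH signal to the luteinising hormone beta gene.

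The promoter sequences of 4 members are shown because their groups differ in distinct ways in the results: Egr2 and Nr4a1 were lower in both siRNA groups than in Vehicle, Nr4a2 was highest in Scramble, and Btg2 was highest with the Klf4 siRNA. Each window runs from 250 bases before to 50 bases after an annotated RefSeq start (build GRCm38.p6), 5′ to 3′ on the gene's strand. Capitals mark matches on either strand to the full CRE (TGACGTCA), its shorter core (TGACG, which also occurs inside the full CRE), the CArG box, the EGR sites (GCGTGGGCG and GCGGGGGCG) and the NR4A monomer site (AAAGGTCA). The windows lie at chr10:67537619-67537918 on the + strand for Egr2, chr15:101266596-101266895 on the + strand for Nr4a1, chr2:57123954-57124253 on the - strand for Nr4a2, and chr1:134079106-134079405 on the - strand for Btg2.
Egr2: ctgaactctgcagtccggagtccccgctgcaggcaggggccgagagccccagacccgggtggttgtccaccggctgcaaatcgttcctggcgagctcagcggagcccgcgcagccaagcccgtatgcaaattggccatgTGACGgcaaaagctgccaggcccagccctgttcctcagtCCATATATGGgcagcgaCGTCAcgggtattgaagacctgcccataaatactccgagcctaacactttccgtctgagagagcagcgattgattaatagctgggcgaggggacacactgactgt
Nr4a1: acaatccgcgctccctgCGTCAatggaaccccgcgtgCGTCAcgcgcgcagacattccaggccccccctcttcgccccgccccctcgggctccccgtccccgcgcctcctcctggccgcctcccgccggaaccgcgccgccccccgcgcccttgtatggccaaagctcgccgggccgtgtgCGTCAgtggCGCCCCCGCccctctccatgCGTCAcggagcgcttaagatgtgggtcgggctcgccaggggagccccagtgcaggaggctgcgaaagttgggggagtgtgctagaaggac
Nr4a2: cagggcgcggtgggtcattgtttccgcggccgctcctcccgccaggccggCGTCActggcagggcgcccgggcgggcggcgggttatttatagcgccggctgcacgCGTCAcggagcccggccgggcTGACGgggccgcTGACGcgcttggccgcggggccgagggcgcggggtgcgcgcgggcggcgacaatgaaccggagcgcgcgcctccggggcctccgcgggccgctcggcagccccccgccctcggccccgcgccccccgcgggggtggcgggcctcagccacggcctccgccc
Btg2: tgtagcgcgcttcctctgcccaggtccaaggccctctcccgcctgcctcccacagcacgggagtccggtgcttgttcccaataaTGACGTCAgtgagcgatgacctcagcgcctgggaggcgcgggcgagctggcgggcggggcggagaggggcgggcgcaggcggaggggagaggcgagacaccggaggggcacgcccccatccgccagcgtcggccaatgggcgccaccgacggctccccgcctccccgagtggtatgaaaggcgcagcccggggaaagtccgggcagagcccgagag

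Egr2 carried a CArG box from -72 to -63 between 2 CRE cores. Nr4a1 had 4 CRE cores and, from -60 to -52, the GCGGGGGCG form of the EGR site on the opposite strand. Nr4a2 had 4 CRE cores and no other match. Btg2 alone among the members with a window had the full CRE, from -166 to -159. Across 32851 RefSeq windows of the same length the CArG box occurred in 1.63%, the full CRE in 1.79%, the CRE core in 20.8%, GCGTGGGCG in 0.612%, GCGGGGGCG in 2.91% and the NR4A site in 1.51%. Windows were examined for 8 of the 10 members (13 windows in all), and not for Egr1 or Ier2, so nothing here describes the promoters of those genes. Of the 8, 5 held a CRE core, 1 held the full CRE, 1 held a CArG box and 1 held an EGR site. Per1 was the other gene with a CRE core, 1 in each of its 2 windows, and the windows of Ier3, Ier5 and Gadd45b held none of these motifs. Egr2 has 5 annotated starts, of which 1 is shown. The member counts are of genes with a match in any of their windows, while the shares are of single windows, so they are not directly comparable. A match is a description of the letters and not evidence of binding.

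Library totals ran from 25992363 to 39674984 counts. Klf4 itself had 44, 30, 61 and 45 counts in the Klf4 siRNA samples, 187, 152, 93 and 121 in the Scramble samples, and 166, 138, 131 and 158 in the Vehicle samples, so the targeted gene was lower in every sample of its siRNA group. Of 12 markers of GnRH neurons 10 were listed, with Gnrh1 at 745 ± 66.1 TMM-scaled CPM with the Klf4 siRNA, 1688 ± 139 CPM in Scramble and 676 ± 63.6 CPM in Vehicle (SD, n = 4 each). Of markers of other cells, 3 of 7 for astrocytes, 3 of 8 for the oligodendrocyte lineage, 2 of 8 for microglia, 2 of 6 for endothelium and 6 of 8 for fibroblasts were listed. Gfap, Aqp4, Mog, Olig2, Cx3cr1, P2ry12, Pecam1 and Cdh5 were not among them. The summed fibroblast markers spanned 225 to 258 CPM with the Klf4 siRNA, 305 to 335 CPM in Scramble and 306 to 334 CPM in Vehicle. These sums hide opposite changes between Scramble and Vehicle. In Scramble over Vehicle Fbln1 was higher (log2 fold change 0.34), Col1a2, Col3a1 and Dcn were lower (-0.51, -0.80 and -0.35), and 2 markers were not called. Summed astrocyte markers spanned 94.0 to 114 CPM with the Klf4 siRNA, 68.5 to 75.4 CPM in Scramble and 79.2 to 89.3 CPM in Vehicle, and endothelial ones 15.5 to 20.7, 33.6 to 41.8 and 47.9 to 54.6 CPM in the same groups. The astrocyte sums join genes that differ in direction: in Scramble over Vehicle Aldoc was 6.00-fold higher while Gja1 and Aldh1l1 were lower. The endothelial sums are almost all Kdr, which was lower in Klf4 siRNA over Scramble (log2 fold change -1.12). Tek was higher there (2.42) but near the floor, at 0.824 CPM with the Klf4 siRNA and 0.142 CPM in Scramble. It was not tested in Scramble over Vehicle. Oligodendrocyte markers summed to at most 38.4 CPM and microglial ones to at most 43.3 CPM in any sample, both in Vehicle. The 10 GnRH markers spanned 1430 to 1580 CPM with the Klf4 siRNA, 2440 to 2810 CPM in Scramble and 1520 to 1680 CPM in Vehicle, with Gnrh1 as above. The 10 did not move alike: Tubb3 was higher than Vehicle in both siRNA groups (log2 fold change 1.07 with the Klf4 siRNA and 1.09 in Scramble), while Six6 was lower in both (-0.62 and -0.16). The part of these shifts in the differences that follow was not tested. In bulk RNA, fewer cells making a transcript and less of it per cell cannot be told apart.

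Most of the genes stood lower in both transfected groups than in Vehicle. In Scramble over Vehicle, edgeR's quasi-likelihood test called 7 of the 8 members other than Ier2 at a Benjamini-Hochberg adjusted p under 0.05, 6 lower and 1 higher, where 53.9% of all genes tested were called, 26.6% lower and 27.3% higher. The 4 samples of each group did not overlap for 7 of these 8, against 48.4% of all genes. A fall of at least 2-fold was called for 5 of the 8 (Egr1, Egr2, Nr4a1, Gadd45b and Per1), against 2.55% of all genes. The median log2 fold change was -1.17 over these 8, or -1.23 with Ier2, and 0.01 over all genes.

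In Klf4 siRNA over Vehicle, 7 of the same 8 members were called, 6 lower and 1 higher, where 45.4% of all genes were called, 21.3% lower and 24.1% higher. The groups did not overlap for 7 of the 8, against 41.1% of all genes, and a fall of at least 2-fold was called for 4 of them (Egr1, Egr2, Nr4a1 and Per1), against 2.63% of all genes. Here the median was -0.93 over the 8, or -1.36 with Ier2, and 0.02 over all genes.

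In Klf4 siRNA over Scramble, the comparison in which both groups were transfected, 6 of the 8 members tested were called, 4 higher and 2 lower, where 36.0% of all genes were called, 18.5% higher and 17.5% lower. The groups did not overlap for 5 of the 8, against 34.6% of all genes. The median was 0.15 over the members and -0.00 over all genes, so the members did not move one way. These 3 comparisons share samples in pairs and are not independent of each other.

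**Figure D1:**
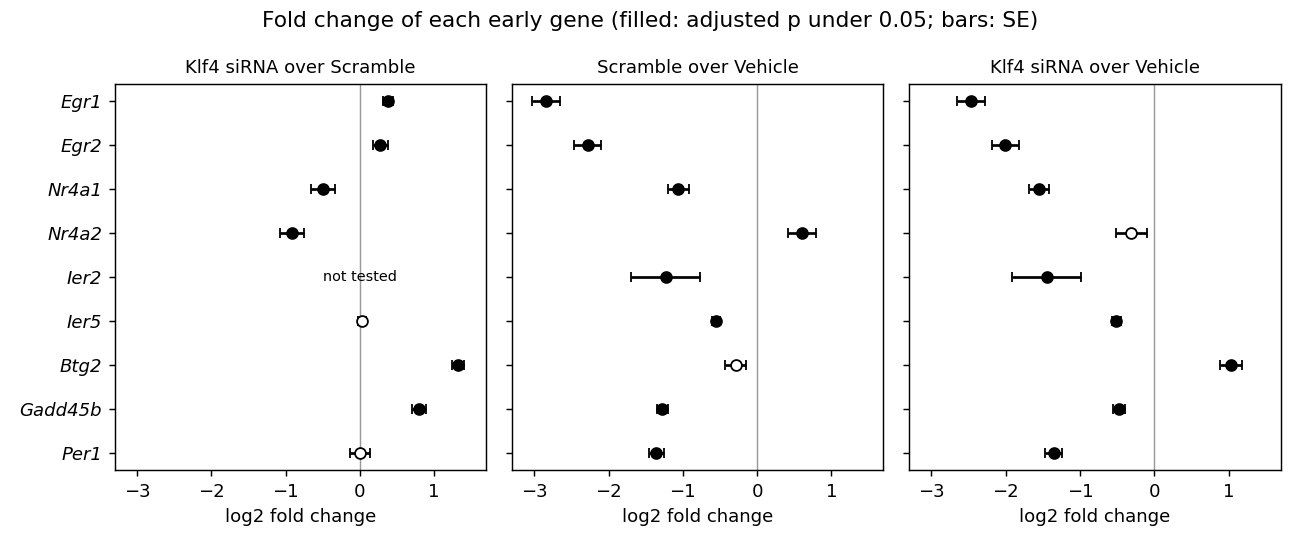
Log2 fold change of each member in the 3 comparisons (x axis), with members down the page; filled points passed edgeR's test at an adjusted p under 0.05, open points did not, and bars are standard errors. Egr1 and Egr2 lie farthest to the left against Vehicle, while Btg2 with the Klf4 siRNA lies to the right of 0 against both other groups.

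Egr1 (ENSMUSG00000038418.7, mm10 chr18:34859823-34864984, + strand), the founding EGR factor, was the member most abundant per length in Vehicle and the one whose log2 fold change against Vehicle was largest in both transfected groups. Egr1 had counts of 2601, 2571, 2779 and 2754 in the Klf4 siRNA samples, 2930, 2129, 1489 and 2241 in the Scramble samples, and 20773, 10929, 9758 and 15553 in the Vehicle samples. Every transfected sample lay far below every Vehicle sample, and the 4 Klf4 siRNA samples lay above the 4 Scramble samples in CPM. Scramble stood at 13.9% of Vehicle (95% interval 10.7 to 18%, log2 fold change -2.84, SE 0.19, edgeR adjusted p = 5.81e-08). With the Klf4 siRNA it stood at 18.1% of Vehicle (14.1 to 23.3%, adjusted p = 3.90e-07 by edgeR). Between the siRNA groups Egr1 averaged 82.5 ± 4.65 CPM with the Klf4 siRNA and 63.7 ± 6.42 CPM in Scramble (SD, n = 4 each), a difference of 0.38 in log2 (SE 0.07, edgeR adjusted p = 0.00111). That call was lost when all 12 samples shared 1 fit (0.37, SE 0.17, edgeR adjusted p = 0.0972).

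Egr2 (ENSMUSG00000037868.15, chr10:67535475-67542188, + strand), an EGR factor known for its role in myelination and hindbrain patterning, followed the same order at a lower level. Egr2 had counts of 318, 260, 304 and 259 in the Klf4 siRNA samples, 313, 264, 186 and 232 in the Scramble samples, and 1543, 982, 721 and 1167 in the Vehicle samples. The Vehicle samples lay above all others, and the siRNA groups were close together but did not overlap in CPM. Scramble was at 20.6% of Vehicle (16.2 to 26.2%, edgeR adjusted p = 2.33e-07) and the Klf4 siRNA group at 24.9% (19.6 to 31.8%, edgeR adjusted p = 1.63e-06). Klf4 siRNA samples averaged 8.78 ± 0.731 CPM and Scramble samples 7.28 ± 0.558 CPM (SD, n = 4 each), a difference of 0.27 in log2 (SE 0.10, edgeR adjusted p = 0.0452). This difference sat at the threshold: leaving out Klf4 siRNA 1, 3 or 4 or Scramble 2, 3 or 4 ended the call (6 of 8 such fits, edgeR adjusted p from 0.0398 to 0.121 over the 8), and so did the fit of all 12 samples (adjusted p = 0.244).

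Nr4a1 (ENSMUSG00000023034.7, chr15:101254269-101274795, + strand), also called Nur77, was lower in both siRNA groups than in Vehicle, but its order between them was the opposite of that of the EGR genes. Nr4a1 had counts of 138, 201, 172 and 146 in the Klf4 siRNA samples, 265, 275, 228 and 194 in the Scramble samples, and 534, 456, 373 and 493 in the Vehicle samples. The Vehicle samples stood above the rest, while the siRNA groups overlapped. With the Klf4 siRNA it stood at 34.2% of Vehicle (28.5 to 41.0%, edgeR adjusted p = 1.27e-06), and in Scramble at 48.0% (39.8 to 57.8%, edgeR adjusted p = 2.43e-05). Klf4 siRNA samples averaged 5.06 ± 0.847 CPM and Scramble samples 7.19 ± 1.45 CPM (SD, n = 4 each), a difference of -0.50 in log2 (SE 0.16, edgeR adjusted p = 0.0277). The call was lost without Klf4 siRNA 1, 3 or 4 or Scramble 2 or 3 (5 of 8 such fits, edgeR adjusted p from 0.00932 to 0.0892 over the 8).

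Nr4a2 (ENSMUSG00000026826.13, chr2:57106830-57124003, - strand), also called Nurr1 and needed for midbrain dopamine neurons, had a pattern of its own, with its highest level in Scramble. Nr4a2 had counts of 45, 43, 43 and 38 in the Klf4 siRNA samples, 106, 96, 59 and 77 in the Scramble samples, and 56, 47, 33 and 67 in the Vehicle samples. In CPM every Scramble sample was above every sample of the other groups, which overlapped each other. The Klf4 siRNA group was at 52.9% of Scramble (42.4 to 66.1%, log2 fold change -0.92, SE 0.16, edgeR adjusted p = 7.93e-04). Scramble exceeded Vehicle by 0.61 in log2 (SE 0.19, edgeR adjusted p = 0.0142), the 1 member called higher in that comparison. Against Vehicle the Klf4 siRNA group was at 80.8% with an interval of 61.1 to 107%, which did not pass the test (edgeR adjusted p = 0.246).

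**Figure D2:**
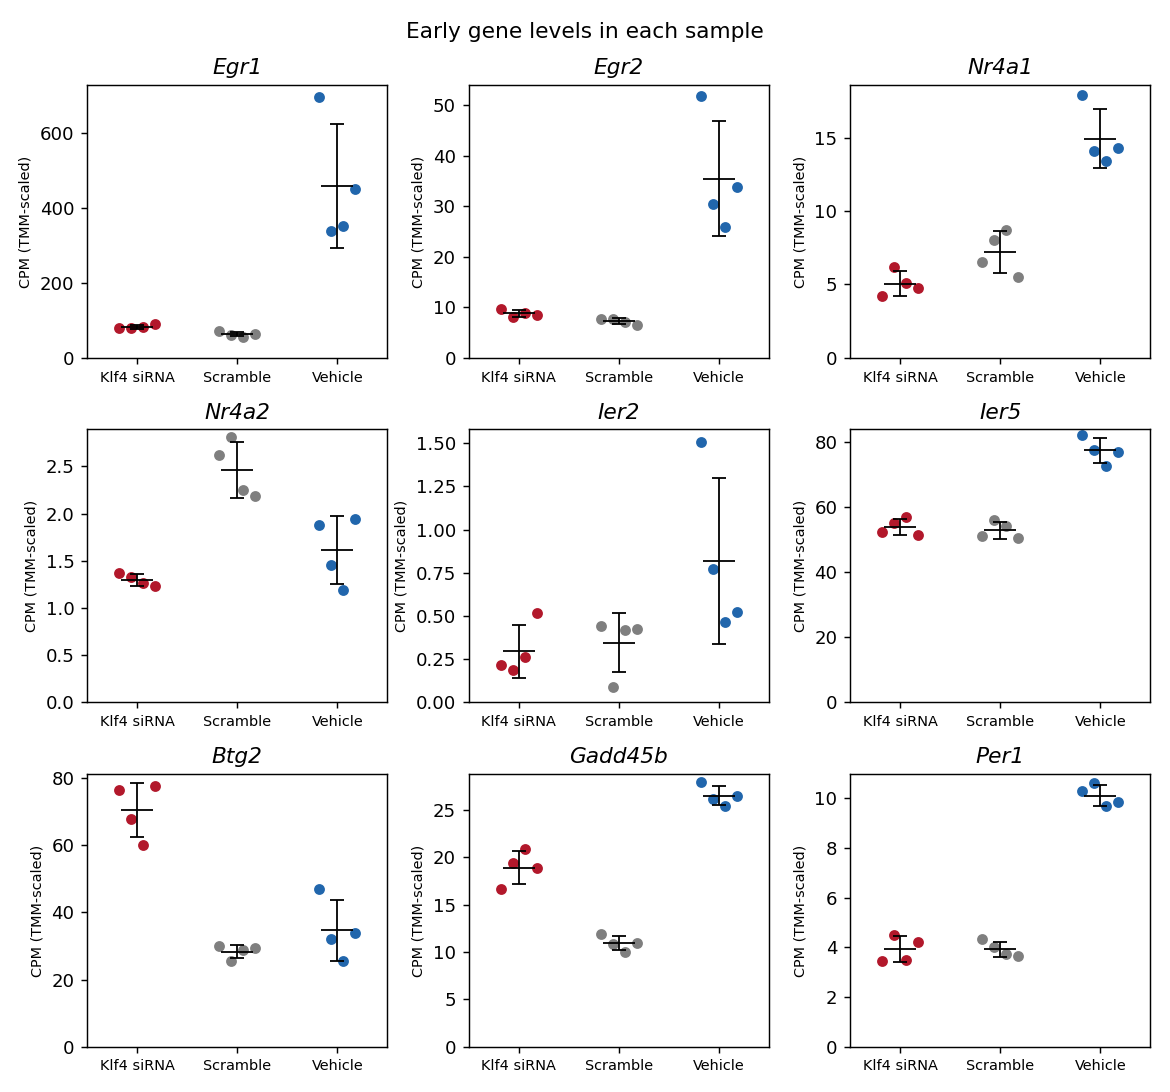
CPM of the 9 listed members in each sample (y axis, linear, a panel a gene; points are samples, n = 4 a group, with mean and SD). The panels show Egr1, Egr2 and Nr4a1 highest in Vehicle, Nr4a2 highest in Scramble and Btg2 highest with the Klf4 siRNA.

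Ier2 (ENSMUSG00000053560.5 in the files, chr8:84661331-84662852, - strand), a small nuclear immediate-early protein, was scarce. Ier2 had counts of 7, 6, 9 and 16 in the Klf4 siRNA samples, 18, 3, 11 and 15 in the Scramble samples, and 45, 25, 13 and 18 in the Vehicle samples. Vehicle 1 alone held 45 of the 101 Vehicle counts, the Klf4 siRNA and Vehicle groups overlapped, and in CPM the highest Scramble sample (0.444) lay just below the lowest Vehicle sample (0.467). Scramble was at 42.6% of Vehicle (22.7 to 80.1%, edgeR adjusted p = 0.0385) and the Klf4 siRNA group at 36.6% (19.5 to 68.5%, edgeR adjusted p = 0.0210). Since Ier2 is listed only where Vehicle is present, the listing favoured a fall below Vehicle, and these tests support nothing beyond the values. Without Vehicle 1 neither call held, with edgeR adjusted p = 0.149 for Scramble and 0.0789 for the Klf4 siRNA. Leaving out Scramble 2, 3 or 4 or Vehicle 2 also ended the Scramble call, and leaving out Klf4 siRNA 2 ended the other.

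Ier5 (ENSMUSG00000056708.5, chr1:155096361-155099636, - strand), a regulator of heat shock factor and of the PP2A phosphatase, was lower than Vehicle by nearly the same amount in both siRNA groups and among the members least variable between samples. Ier5 had counts of 1714, 1782, 1932 and 1589 in the Klf4 siRNA samples, 2070, 1915, 1420 and 1782 in the Scramble samples, and 2458, 2514, 2026 and 2664 in the Vehicle samples. All Vehicle samples lay above all siRNA samples in CPM. The Klf4 siRNA group was at 70.1% of Vehicle (64.7 to 75.9%, edgeR adjusted p = 1.66e-05) and Scramble at 68.3% (63.4 to 73.6%, edgeR adjusted p = 2.28e-06). Between the siRNA groups the ratio was 102% with an interval of 95.1 to 110% (edgeR adjusted p = 0.662).

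Btg2 (ENSMUSG00000020423.6, chr1:134075170-134079120, - strand), a p53 target that slows proliferation and recruits the CCR4-NOT deadenylase, was the member most raised with the Klf4 siRNA. Btg2 had counts of 2498, 2194, 2040 and 2390 in the Klf4 siRNA samples, 1212, 868, 752 and 1034 in the Scramble samples, and 1403, 1033, 712 and 1175 in the Vehicle samples. The 4 Klf4 siRNA samples lay above all others, and Scramble and Vehicle overlapped. Btg2 averaged 70.4 ± 8.12 CPM with the Klf4 siRNA, 28.3 ± 2.0 CPM in Scramble and 34.6 ± 9.0 CPM in Vehicle (SD, n = 4 each). Klf4 siRNA over Scramble was 2.5-fold (log2 fold change 1.32, SE 0.08, edgeR adjusted p = 1.34e-07), the only member difference of at least 2-fold in that comparison, a size called higher for 1.58% of all genes. Against Vehicle it was 2.05-fold (log2 fold change 1.03, SE 0.14, edgeR adjusted p = 8.67e-05). Scramble was at 81.8% of Vehicle (67.8 to 98.6% before adjustment) and was not called (edgeR adjusted p = 0.0906), but without Vehicle 3 it was called lower (log2 fold change -0.41, edgeR adjusted p = 0.0128).

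Gadd45b (ENSMUSG00000015312.9, chr10:80930073-80932204, + strand), which links stress signals to p38 and JNK kinases, was graded over the 3 groups. Gadd45b had counts of 544, 627, 708 and 581 in the Klf4 siRNA samples, 481, 370, 263 and 388 in the Scramble samples, and 833, 847, 709 and 915 in the Vehicle samples. No group overlapped another in CPM, with Vehicle on top, the Klf4 siRNA between and Scramble lowest. The Klf4 siRNA group exceeded Scramble by 0.79 in log2 (SE 0.09, edgeR adjusted p = 2.29e-05) and stood at 71.9% of Vehicle (64.2 to 80.4%, edgeR adjusted p = 4.56e-04). Scramble was at 41.3% of Vehicle (37.5 to 45.6%, edgeR adjusted p = 1.01e-08).

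Per1 (ENSMUSG00000020893.17, chr11:69095217-69109960, + strand), a repressor in the circadian loop whose promoter answers CREB, was lower than Vehicle and level between the siRNA groups. Per1 had counts of 113, 146, 119 and 130 in the Klf4 siRNA samples, 175, 137, 98 and 129 in the Scramble samples, and 307, 343, 269 and 340 in the Vehicle samples. The Vehicle samples were all above the siRNA samples, which were interleaved. Both siRNA groups were at about 39% of Vehicle, the Klf4 siRNA group at 39.1% (33.4 to 45.7%, edgeR adjusted p = 1.13e-06) and Scramble at 39.0% (34.2 to 44.6%, edgeR adjusted p = 1.18e-07). Klf4 siRNA over Scramble was 99.9% with an interval of 83.5 to 119% (edgeR adjusted p = 0.993).

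Ranked per length by the authors' RPKM, the members kept different orders in the 3 groups. With the Klf4 siRNA Btg2 led at 25.7 ± 2.96 RPKM, ahead of Egr1 at 18.4 ± 1.04 and Ier5 at 16.5 ± 0.760 RPKM, each apart from its neighbour. In Scramble Ier5 at 16.2 ± 0.802 and Egr1 at 14.2 ± 1.43 RPKM overlapped at the top, above Btg2 at 10.3 ± 0.731 RPKM. In Vehicle Egr1 led at 102 ± 37.0 RPKM, followed by Ier5 at 23.7 ± 1.20 RPKM and Gadd45b at 16.7 ± 0.646 RPKM, which overlapped Btg2 at 12.6 ± 3.28 RPKM, as Btg2 did Egr2 at 10.4 ± 3.33 RPKM. Nr4a2 and Ier2 were at the bottom in each group, at 0.321 ± 0.0157 and 0.194 ± 0.0999 RPKM with the Klf4 siRNA, 0.607 ± 0.0737 and 0.226 ± 0.112 RPKM in Scramble, and 0.398 ± 0.0882 and 0.536 ± 0.315 RPKM in Vehicle (all SD, n = 4).

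The Vehicle samples differed among themselves more for some members than for others. Across Vehicle 1 to 4 Egr1 had 696, 338, 351 and 450 CPM, Egr2 had 51.7, 30.4, 25.9 and 33.8 CPM, and Btg2 had 47.0, 32.0, 25.6 and 34.0 CPM. Vehicle 1 was the highest sample for all of these, and its Egr1 level was 2.06 times that of Vehicle 2. Their coefficients of variation (SD over mean) were 36.2%, 31.9% and 26%, and those of Ier2, Nr4a2 and Nr4a1 were 58.7%, 22.2% and 13.5%. Gadd45b, Per1 and Ier5 were steady at 3.87%, 4.24% and 5.06%. The median over the 9 members was 22.2% in Vehicle against 7.41% over all genes, which were not matched to the members for level. That 22.2% was the coefficient of Nr4a2, which had only 33 to 67 counts per Vehicle sample. With the Klf4 siRNA the medians over members and over all genes were 9.29% and 7.41%, and in Scramble 7.67% and 5.63%. A coefficient above 20% was found in Vehicle for 5 of 9 members, against 10.6% of all genes, while with the Klf4 siRNA it was found for 1 of 9 and in Scramble for 2 of 9, against 10.6% and 7.85% of all genes. Of 40 other immediate-early genes it was found for 7 in Klf4 siRNA samples, 9 in Scramble samples and 10 in Vehicle samples, with median coefficients of 11.4%, 10.5% and 10.1%. Vehicle 1 held the highest value for 7 of 9 members and 23 of 40 other immediate-early genes, against 27.4% of all genes, and Vehicle 3 held the lowest for 8 of 9 members and 15 of 40 other immediate-early genes, against 28.5% of all genes. These member counts and medians include Ier2, which was listed only in the tables that include Vehicle. Its coefficient was above 20% in all 3 groups, and it had only 13 to 45 counts per Vehicle sample. Ier2 was highest in Vehicle 1 and lowest in Vehicle 3. Without Vehicle 1, Egr1 remained lower in Scramble (log2 fold change -2.57) and with the Klf4 siRNA (-2.19), and Egr2 likewise (-2.04 and -1.77).

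**Figure D3:**
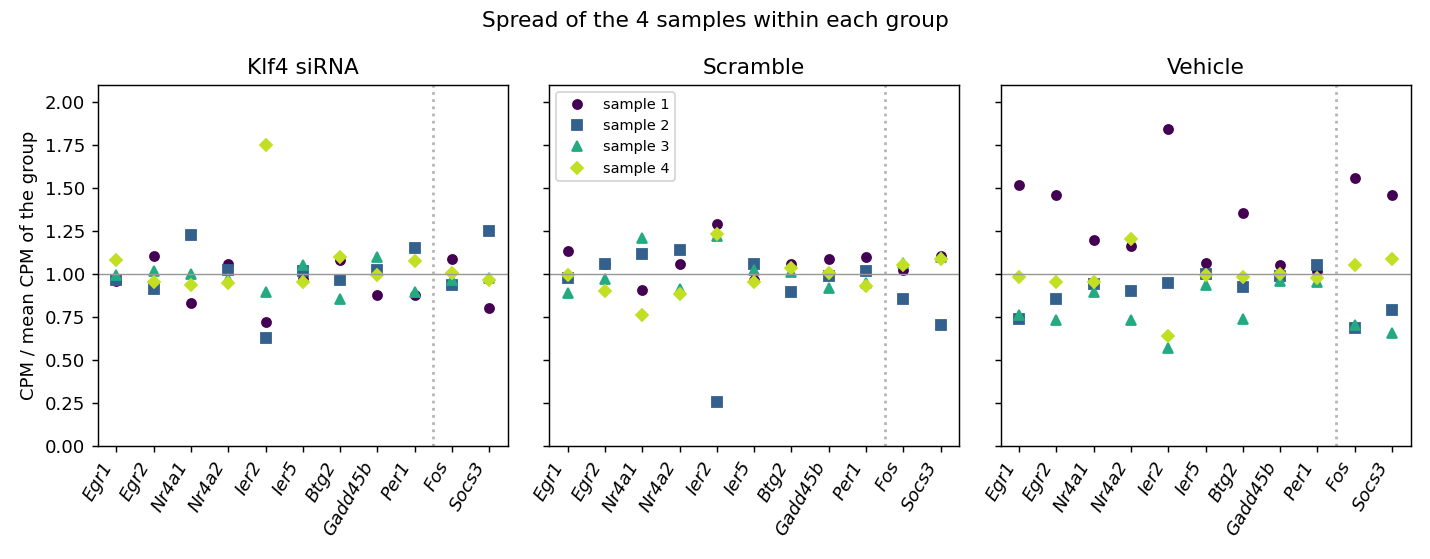
Level of each member in each sample relative to its group mean (y axis), in panels for the Klf4 siRNA, Scramble and Vehicle groups, with the points marked by replicate number. Fos and Socs3 stand right of the dotted line. In Vehicle, sample 1 stands high for Egr1, Egr2, Ier2 and Btg2, while Gadd45b, Per1 and Ier5 cluster near the mean.

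By the smallest root-mean-square difference in centred log2 CPM over the 12 samples, among 11679 genes, Egr1 was nearest to Fos (0.200), Socs3 (0.247) and Egr2 (0.274), where the median gene was at 1.27. Fos, the AP-1 subunit, averaged 23.1 ± 1.51 CPM with the Klf4 siRNA and 14.9 ± 1.44 CPM in Scramble (SD, n = 4 each), and had 158, 69.5, 71.4 and 107 CPM in Vehicle 1 to 4. Nr4a1 was nearest to Hist1h1d (0.206), Npnt (0.211) and Dmpk (0.215), with the median gene at 0.698. Btg2 was nearest to Irf7 (0.207), Apol9a (0.227, whose counts are uncertain beside a close paralog) and Dglucy (0.233), with the median gene at 0.630, and Irf7 averaged 47.2 ± 6.20 CPM with the Klf4 siRNA, 15.6 ± 0.737 CPM in Scramble and 19.5 ± 1.01 CPM in Vehicle (SD, n = 4 each).

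Of the other immediate-early genes, 40 of 50 named were listed. In Scramble over Vehicle 33 of 40 were called lower and 2 higher (Srf and Homer1) by edgeR, against 26.6% and 27.3% of all genes, with a median log2 fold change of -1.15. The 2 higher became 1 without Scramble 1 or 2 or Vehicle 3 or 4. Myc, a growth factor-induced transcription factor, averaged 9.95 ± 0.609 CPM in Scramble and 71.3 ± 8.62 CPM in Vehicle (SD, n = 4 each, log2 fold change -2.84). Atf3, a stress-induced repressor, had a log2 fold change of -2.40 and the kinase Sgk1 one of -2.35. In Klf4 siRNA over Vehicle 28 of 40 were lower and 3 higher (Arc, Srf and Homer1), against 21.3% and 24.1% of all genes, with a median of -0.95. Both counts of lower genes include Fosb, tested only against Vehicle (log2 fold change -2.09 in Scramble and -1.41 with the Klf4 siRNA). As for Ier2, this favours a fall below Vehicle, so the calls of Fosb add no support. In Klf4 siRNA over Scramble 16 of 39 were higher and 4 lower, against 18.5% and 17.5% of all genes, with a median of 0.22, and those higher included Myc (log2 fold change 1.23), Atf3 (0.99), Bhlhe40 (0.70) and Junb (0.70). The 4 lower were Cited2, Id1, Homer1 and Rnd3, and were 2 without Klf4 siRNA 2 or without Scramble 1. Groups of 5 or fewer are named after their values were seen. Egr3, Egr4, Nr4a3 and Bhlhe40 are among genes named in more than 1 list. Nr4a3 was not among the 40 listed genes, so it was not tested.

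Upstream factors were called no more often than genes in general. Of 26 SRF, TCF, CREB and MEF2 pathway genes tested, 5 were higher and 9 lower in Scramble than in Vehicle, 3 higher and 6 lower with the Klf4 siRNA than in Vehicle, and 2 higher and 7 lower with the Klf4 siRNA than in Scramble, where 53.9%, 45.4% and 36.0% of all genes were called in either direction. These counts lean on single libraries: the 9 lower became 3 to 5 without Scramble 2, 3 or 4 or Vehicle 1 or 3, and the 7 lower became 4 without Klf4 siRNA 2 or 3 or Scramble 2, and the 2 higher in that comparison became 4 without Klf4 siRNA 1. Mef2d, a calcium-regulated factor, was lower than Vehicle in both siRNA groups (log2 fold change -0.38 with the Klf4 siRNA and -0.46 in Scramble), and Elk1, a partner of SRF, was higher (0.28 and 0.23). Among 8 co-regulators and partners of the EGR and NR4A factors, the EGR paralog Egr4 was lower than Vehicle in both (-1.57 with the Klf4 siRNA and -2.10 in Scramble), and Rxrb, a dimer partner of NR4A receptors, was higher (0.42 and 0.35). The co-repressor Nab1 was higher in Scramble than in Vehicle (0.32). With all samples, edgeR called none of the 8 between the siRNA groups, while 3 had an unadjusted p under 0.05 and DESeq2 called 1. The edgeR count was 1 lower without Klf4 siRNA 2, 3 or 4, or without 1 and 4 together, and 1 higher without Scramble 4.

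**Figure D4:**
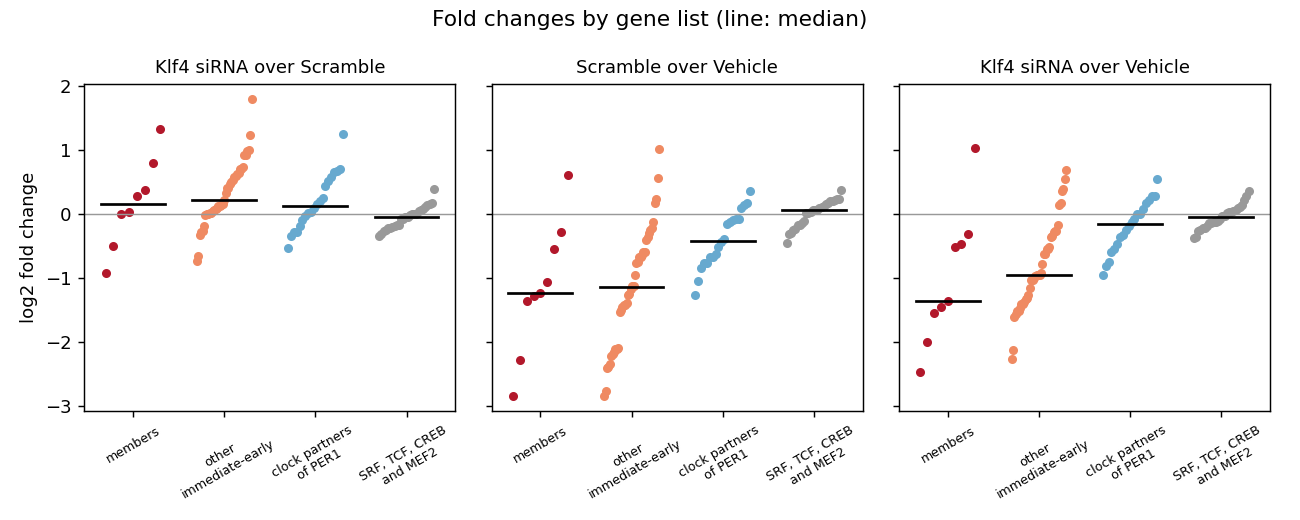
Log2 fold change (y axis) of each gene in 4 lists, sorted within a list, for the 3 comparisons; points are genes and black lines are medians. The members and the other immediate-early genes lie mostly below 0 against Vehicle, while the SRF, TCF, CREB and MEF2 genes lie close to 0. Medians in Scramble over Vehicle are -1.23 (9 members, Ier2 included) and -1.15 (40 other immediate-early genes, Fosb included).

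Around Per1, 20 clock genes were tested. In Scramble over Vehicle 12 were lower and 2 higher, against 26.6% and 27.3% of all genes. In Klf4 siRNA over Vehicle 9 were lower and 3 higher, against 21.3% and 24.1%, and in Klf4 siRNA over Scramble 9 were higher and 3 lower, against 18.5% and 17.5%. The 2 higher in Scramble became 1 without Scramble 2 or 3 or Vehicle 4. Ciart, a repressor of CLOCK and BMAL1, averaged 14.6 ± 1.22 CPM with the Klf4 siRNA and 6.17 ± 0.306 CPM in Scramble (SD, n = 4 each, log2 fold change 1.25, edgeR adjusted p = 4.82e-07). Cry2, the partner of PER proteins, had a log2 fold change against Vehicle of -0.81 with the Klf4 siRNA and -0.84 in Scramble. Per2, named after its values were seen, was lower than Vehicle in both groups (-0.75 and -0.77) and, like Per1, did not pass the test between them (log2 fold change 0.02, SE 0.18, edgeR adjusted p = 0.956).

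Another list of 10 genes held paralogs of BTG, GADD45 and IER genes. It also held the partners Ier3ip1, Gadd45gip1, Cnot7 and Cnot8, which are not paralogs and are named to describe the list. Of the 10, 4 were lower and 1 higher in Scramble than in Vehicle, and 3 were lower with the Klf4 siRNA than in Vehicle. With the Klf4 siRNA 2 were higher and 1 lower than in Scramble. That 1 was Ier3ip1 (log2 fold change -0.46), also among the 3 lower than Vehicle (-0.59). None of these counts stood above the 53.9%, 45.4% and 36.0% of all genes called in these comparisons, and the 1 lower became 2 without Klf4 siRNA 4. Btg1, the closest relative of Btg2, rose with the Klf4 siRNA over Scramble by 0.41 in log2 (edgeR adjusted p = 2.35e-04), and it was lower than Vehicle in both groups (-0.54 with the Klf4 siRNA and -0.96 in Scramble). The paralog of Gadd45b, Gadd45g, was also lower than Vehicle in both (-0.76 and -0.87) and did not pass the test between the siRNA groups (0.10, SE 0.06, edgeR adjusted p = 0.246).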

How the data were processed

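RNA from 12 samples, 4 per group by title, was sequenced from libraries made with a Takara SMART-Seq kit, which does not mark strand, per the labels' protocols. The authors deposited raw counts per gene for each pair of groups, per the file headers. The submitters' processing notes name STAR, Subread, edgeR, FastQC and STAR-Fusion, and the build mm10, without roles. How reads with several matches were counted, and the rule that chose the listed genes, were not given in the sources at hand. The deposited RPKM values, made by the authors from counts and gene length, gave levels between genes. The authors' log2 fold changes, p-values and call score were also deposited and were not used for any result. A gene's counts were the same in each table.

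The test was edgeR's quasi-likelihood test (edgeR 4.0.16, R 4.3.3, TMM scaling, default filter on low counts, the 8 samples of each pair, no block), with Benjamini-Hochberg adjustment over all genes and a threshold of 0.05. Fold changes are first group over second, with 95% intervals as 1.96 SE before adjustment. CPM values used TMM over 12 samples, and the pattern search used log2 CPM with a prior count of 2 among genes averaging at least 1 CPM. The fits were also run on simulated data with 200 changed genes and the same relative spread for every gene. In the real data far more genes were called and spread differed between genes. That run therefore does not show how the fits perform on these data. Alternatives were DESeq2 1.42.0, its size factors, no filter, all 12 samples in 1 fit, the replicate number as a block, each library left out, and Klf4 siRNA samples 1 and 4 left out, since they held high counts of some gene models. Replicates differed by more than sampling noise, with chi-square per gene of at least 3.37. Precision depends on this spread between samples as well as on depth, at 25992363 to 39674984 counts per library. Intervals cover only these samples.

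Positions came from GENCODE M21 (GRCm38, the assembly of mm10), where no other gene overlapped a member, and Ier2's identifier version differed from it. Members and lists were chosen with earlier results of these data known. The text names the 10 members, up to 4 called genes with the smallest p per list and comparison, and the 3 genes nearest in pattern to Egr1, Nr4a1 and Btg2. Exceptions are marked where they stand.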

Additional observations from a re-analysis of the deposited data

Results flagged for a closer look

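Of 27 sets of 4 samples (9 members in 3 groups), 1 held a sample far from the others. Ier2 in Scramble 2 was at 0.0878 CPM, from 3 counts, while the other Scramble samples held 18, 11 and 15 counts, and its gap to the nearest sample was 0.931 of the group's range. The limit used is one that chance passes in about 1 of 20 sets.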

How the results depend on the processing

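The number of members called stayed within 1.5 times under each alternative: 4 to 6 in Klf4 siRNA over Scramble, 7 to 9 in Scramble over Vehicle and 7 to 8 in Klf4 siRNA over Vehicle when single libraries were left out, Ier2 included. Leaving Ier2 out of the members, a choice made after seeing the data, gave 7 called in each comparison with Vehicle in place of 8. Over the same fits the genes called ranged from 3531 to 4634, 6085 to 6755 and 4899 to 5654. Of the member fold changes with a library left out, 185 kept direction and call, 18 lost the call, 4 (Per1) changed sign uncalled and 1 (Btg2, Scramble over Vehicle) gained it. Members called higher in Klf4 siRNA over Scramble fell to 2 with all 12 samples in 1 fit, where Egr1 and Egr2 lost their calls. Without Klf4 siRNA 1 and 4, Egr2 (edgeR adjusted p = 0.153) and Nr4a1 (edgeR adjusted p = 0.162) lost theirs. The cause of these losses was not tested. Per1 in Klf4 siRNA over Scramble, not called in any fit, changed sign, at 0.0034 with no filter, 0.029 without Klf4 siRNA 1 and 4, and from -0.078 to 0.056 on the log2 scale with single libraries left out. All CPM levels moved by less than 1 SD under both other scalings.

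Samples with the same replicate number did not clearly deviate together, with correlations from -0.242 to 0.218. With 4 samples in each group this cannot exclude that the numbers pair the samples. With the replicate block, edgeR called 5, 8 and 8 members and 3880, 6143 and 5968 genes in the 3 comparisons in the order above, and Egr2 in Klf4 siRNA over Scramble had a log2 fold change of 0.27 and an adjusted p of 0.073. Depth limits Ier2, with 3 to 45 counts per library.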
